A study of Mus musculus with 12 samples.

Results

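Rab proteins are a family of small GTPases that direct membrane traffic, and their messenger RNAs were followed here in sorted mouse beta cells from late gestation to young adulthood. A gene was counted in the family where its symbol was Rab, a number from 1 to 43 and at most 1 letter, which left out effectors, regulators and pseudogenes. The array carried probes for 56 such genes. Of these, 47 had a probe above background on 2 or more of the 12 samples, among 9318 genes of all kinds that passed the same filter. 38 of the 47 were above background on all 12 samples and 9 on fewer. Rab20, Rab2b, Rab30, Rab33a, Rab38, Rab3c, Rab40b, Rab42 and Rab7b were on the array and did not pass, with intensities of 28.9 to 50.9 on a linear scale. Rab5b, Rab26 and Rab41 have no probe named here.

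A Rab protein is active while bound to GTP, which an exchange factor loads onto it, and inactive after a GTPase activating protein has triggered hydrolysis. The active form sits on a membrane and recruits effectors such as tethers, motor adaptors and docking proteins, so each Rab acts on its own step of transport. In beta cells, Rab3 and Rab27 proteins lie on insulin granules and act in their docking and exocytosis, while other members serve the endoplasmic reticulum, Golgi, endosomes and lysosomes through which granule cargo and membrane pass.

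The cells came from islets of mice heterozygous for a Pdx1-GFP transgene and crossed with ICR, a genotype that all groups shared. Islets were dissociated with trypsin, green fluorescent cells were sorted, and biotin-labelled RNA was hybridised to Illumina bead arrays. There were 4 samples from E18.5 embryos, 3 at P1 (postnatal day 1), 2 at P10 (postnatal day 10) and 3 from adults of 5 weeks. The labels do not say how many animals made up a sample or whether samples came from separate litters, so a p-value here speaks of the spread between these 12 samples alone, which may be technical. The sort reads the activity of the Pdx1 promoter, which is also active in some pancreatic cells other than beta cells. In such bulk samples, fewer cells of a type and less RNA per cell cannot be told apart.

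Samples of one age correlated at r of 0.977 to 0.991 across genes and samples of different ages at 0.902 to 0.981. All 9 beta cell markers were above background in every sample, and the mean log2 level of the list per sample lay between 9.69 and 10.27. Single beta cell markers differed by age. In adults against E18.5, 2 of the 9 were called higher (G6pc2, 2.96-fold, and Iapp, 1.82-fold) and 1 lower (Nkx6-1, 1.51-fold). Acinar cell markers, the digestive enzymes and zymogen granule proteins of the exocrine pancreas, differed by age. The mean log2 level of the 21 acinar markers kept, of 25 listed, was 5.01 to 6.46 at E18.5, 5.43 to 7.51 at P1, 9.51 to 10.94 at P10 and 10.13 to 11.48 in adults. Between 7 and 18 of the 21 were above background in the E18.5 samples, 15 to 20 in the P1 samples and all 21 in every P10 and adult sample. At P10, 20 of the 21 were called higher than at P1, and in adults 21 of 21 were called higher than at E18.5. The 9 kept markers of the other islet endocrine cells (alpha, delta, PP and epsilon) averaged 10.08 to 10.95 at E18.5, 10.42 to 10.64 at P1, 10.09 to 10.51 at P10 and 8.46 to 10.08 in adults, with adult replicate 3 the lowest. The 6 endothelial and stromal markers averaged 5.03 to 6.64 at E18.5, 4.75 to 6.24 at P1, 4.71 to 5.84 at P10 and 4.61 to 4.80 in adults. The 5 duct markers averaged 5.89 to 6.14 in adults and 6.18 to 6.56 at the earlier ages, and the 3 leukocyte markers 4.42 to 5.60 over all samples. Several of these lists thus moved with age beside the Rab results, and, apart from a fit with the acinar markers as a covariate, their part in those results was not tested. In that fit no Rab gene passed the threshold in adults against E18.5, as given with the comparison.

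**Figure D1:**
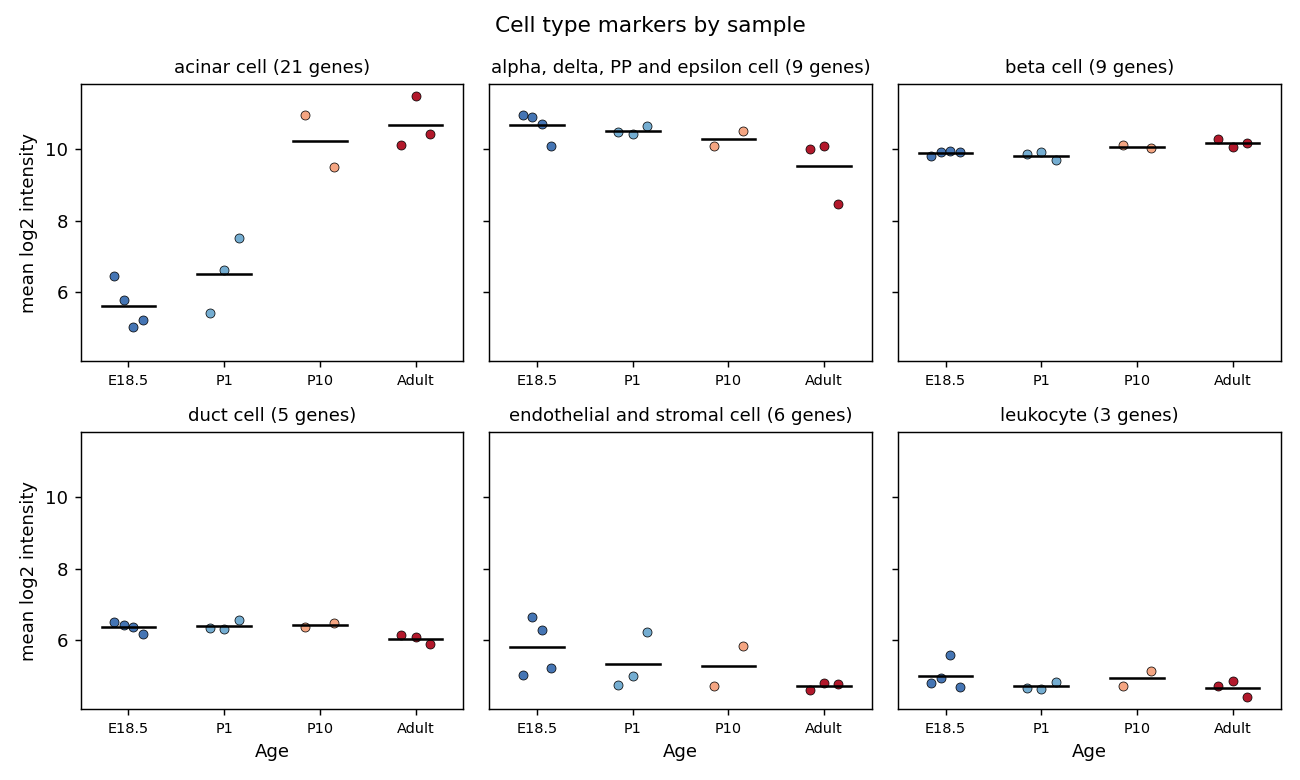
Mean log2 intensity of the kept markers of 6 cell types in each sample (y axis), by age (x axis), with 1 point per sample and a line at the mean of the age; levels are to be read within a panel and not between panels. The acinar list mean lies between 9.51 and 11.48 at P10 and in adults and between 5.01 and 7.51 at E18.5 and P1. The beta cell list mean lies between 9.69 and 10.27 in all 12 samples, though single markers of that list differed by age.

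Across the 4 ages, 20 of the 47 Rab genes changed by limma's moderated F-test (adjusted p under 0.05), which is 42.6% of the members where 43.5% of all genes tested were called. The share of Rab genes that moved with age was thus close to that of genes in general. In adults, 11 Rab genes (23.4%) were higher and 5 (10.6%) lower than at E18.5. Over all genes, 18.6% were higher and 21.9% lower. Among the Rab calls were Rab15 at 3.85-fold lower and Rab9b at 2.03-fold higher. With median scaling of the arrays the Rab split was 8 and 8. Of the calls over all genes, 31.1% were higher with that scaling and 46.0% with quantile normalization. Of the 3 Rab3 paralogues, Rab3a and Rab3d were higher in adults than at E18.5, and Rab3b was highest at P1 and P10. The paralogues were not tested against each other. Rab27a, the Rab of insulin granule docking, passed no test. Counting both the F-test and the 4 pairwise comparisons, 21 members were called at least once and 26 in none. The same count was not made over all genes, of which the F-test alone called 43.5%, so it says nothing particular to Rab genes.

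**Figure D2:**
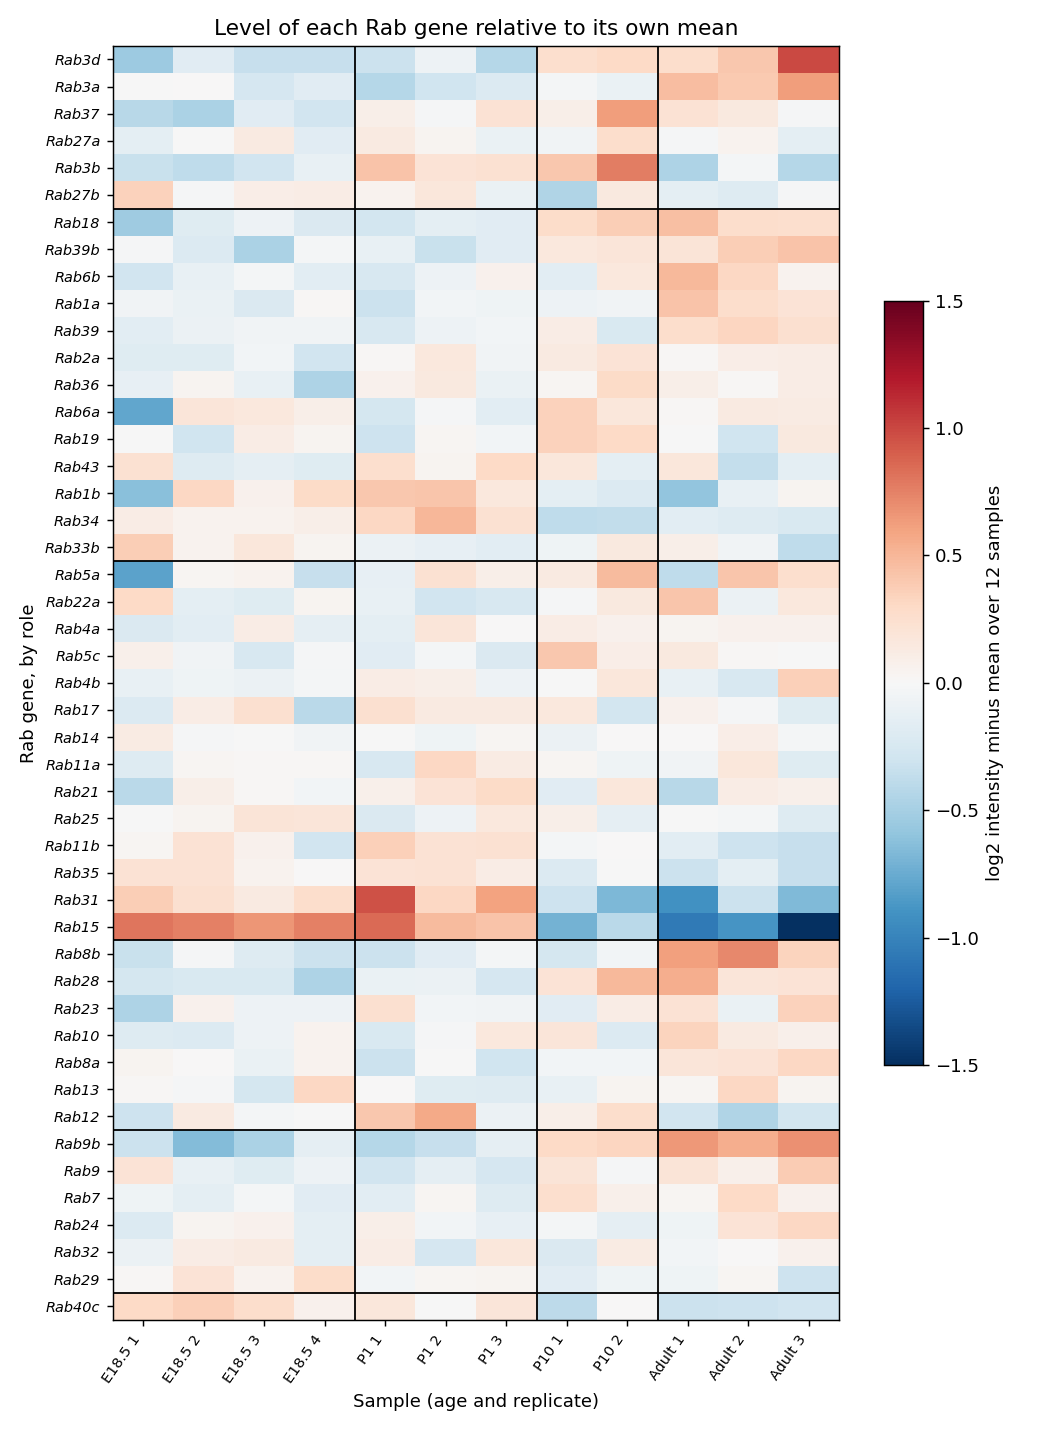
Log2 intensity of each of the 47 Rab genes minus its own mean over the 12 samples (colour), with samples by age and replicate on the x axis and genes grouped by role on the y axis. The deepest blue lies in Rab15 in adult replicate 3, at a level of 5.01, and Rab15 is red in all E18.5 and P1 samples, at 7.11 to 7.53.

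The proximal promoters of 5 of these genes are shown to set close relatives and the strongest movers side by side: the 3 kept Rab3 paralogues, and Rab9b and Rab31, the members with the largest rise and the largest fall in adults against E18.5 among those with 1 window in the table. Each run covers 250 bases before and 50 after the start of the RefSeq gene in build GRCm38.p6, written 5′ to 3′ on the gene's own strand. It is the reference sequence of strain C57BL/6J and not that of these mice. Capitals mark GC boxes, the letters GGGCGG on either strand, with overlapping matches counted separately. The windows lie at chr8:70754453-70754752, plus strand (Rab3a, the first of 2 windows), chr4:108878820-108879119, plus strand (Rab3b), chr9:21918134-21918433, minus strand (Rab3d), chrX:136868507-136868806, minus strand (Rab9b) and chr17:65772703-65773002, minus strand (Rab31).
Rab3a: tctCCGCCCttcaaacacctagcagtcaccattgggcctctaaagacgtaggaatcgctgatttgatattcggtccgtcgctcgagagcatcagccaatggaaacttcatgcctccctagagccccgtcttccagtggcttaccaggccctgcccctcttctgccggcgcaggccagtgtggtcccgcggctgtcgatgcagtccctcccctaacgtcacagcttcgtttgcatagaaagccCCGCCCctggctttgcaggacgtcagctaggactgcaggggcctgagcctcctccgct
Rab3b: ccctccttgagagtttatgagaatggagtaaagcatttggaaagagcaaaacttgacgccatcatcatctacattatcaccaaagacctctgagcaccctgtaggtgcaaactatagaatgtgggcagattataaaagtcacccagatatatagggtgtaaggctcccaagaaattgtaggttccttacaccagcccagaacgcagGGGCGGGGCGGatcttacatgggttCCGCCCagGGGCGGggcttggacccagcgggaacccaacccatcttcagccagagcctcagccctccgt
Rab3d: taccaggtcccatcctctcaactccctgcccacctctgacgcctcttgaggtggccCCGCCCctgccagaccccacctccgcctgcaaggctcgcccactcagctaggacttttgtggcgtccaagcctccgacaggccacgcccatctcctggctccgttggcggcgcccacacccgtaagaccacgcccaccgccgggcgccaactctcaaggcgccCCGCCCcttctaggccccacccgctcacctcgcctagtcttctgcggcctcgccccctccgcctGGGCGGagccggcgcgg
Rab9b: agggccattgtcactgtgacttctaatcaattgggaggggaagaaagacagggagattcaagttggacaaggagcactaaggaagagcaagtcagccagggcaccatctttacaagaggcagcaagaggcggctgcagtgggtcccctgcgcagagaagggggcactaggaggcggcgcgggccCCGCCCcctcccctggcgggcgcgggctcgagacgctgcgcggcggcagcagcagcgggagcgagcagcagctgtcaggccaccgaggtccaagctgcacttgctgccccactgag
Rab31: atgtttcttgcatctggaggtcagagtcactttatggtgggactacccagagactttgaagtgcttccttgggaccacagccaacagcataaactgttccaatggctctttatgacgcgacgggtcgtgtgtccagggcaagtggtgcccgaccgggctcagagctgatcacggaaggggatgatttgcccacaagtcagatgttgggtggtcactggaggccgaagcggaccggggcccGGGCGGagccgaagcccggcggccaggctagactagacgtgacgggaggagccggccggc

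The Rab3a window held 2 GC boxes and 60.0% G and C, that of Rab3b 4 boxes and 51.7%, and that of Rab3d 3 boxes and 71.0%. Rab9b and Rab31 had 1 box each, with 64.3% and 60.3% G and C. Of the 5, the Rab3b window was the one with a TATA box (TATAAA, either strand). Windows were found for 41 of the 47 members, 53 in all. A GC box stood in 66.0% of the 53, against 61.5% of the 9808 windows of genes kept on these arrays and 35.7% of all 32851 windows in the table. For the core of the cyclic AMP response element (TGACG, either strand) the shares were 45.3% of the Rab windows, 30.4% of the windows of kept genes and 20.8% of all windows. The CCAAT letters were in 39.6% of the Rab windows, against 37.9% of the windows of kept genes and 37.4% of all. TATAAA was in 5.66%, against 7.54% of the windows of kept genes and 13.6% of all. A match of letters is a description and does not show that a factor binds there.

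At P1 against E18.5, the span around birth, 1 Rab gene was called higher, Rab3b, and limma called 0 lower. Among all genes, 5.39% were called in this comparison, 2.55% higher and 2.83% lower, and 8 Rab genes had an unadjusted p under 0.05. The differences of the 47 members ranged from -0.28 to 0.57 on the log2 scale, with a median of 0.06, beside a median of -0.01 over all genes. At P10 against P1, 6 Rab genes were called, with Rab9b, Rab18 and Rab28 higher and Rab15, Rab31 and Rab34 lower at P10. The share called over all genes was 11.5%, with 5.48% higher and 6.05% lower. The members' differences ran from -1.14 to 0.62 with a median of 0.08, beside 0.00 over all genes. In adults against P10, 4 Rab genes were called, Rab3a and Rab8b higher and Rab3b and Rab15 lower, where 13.3% of all genes were called, 6.01% higher and 7.27% lower. The members' differences ran from -0.89 to 0.71 with a median of -0.03. These counts moved when 1 sample was left out. At P1 against E18.5 the Rab count was 0 without E18.5 replicate 2 or 3 or P1 replicate 1 or 2 (3 to 6 at an unadjusted p under 0.05 by limma) and 2 without either P10 replicate, and the count over all genes ranged from 114 to 592. Without either P10 replicate, 3 Rab genes were called at P10 against P1 and 2 in adults against P10, and over all 12 such fits the counts of all genes ranged from 388 to 1180 and from 510 to 1294. The comparisons share samples with each other, so the courses of a gene over neighbouring ages are not independent of one another.

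Over the whole span, 16 of the 47 Rab genes were called in adults against E18.5, which is 34.0% where 40.4% of all genes were called. The median difference was 0.12 over the members and -0.01 over all genes, and 32 of the 47 were above 0. A log2 difference beyond 1 in size was reached by 2 members, or 4.26%, and by 8.06% of all genes. The split into 11 higher and 5 lower calls depends on the scaling of the arrays. Scaled by the median of each array in place of quantiles, the median of all genes stood at -0.11 and that of the members at 0.01. Of the 47 members, 25 were above 0, and 8 Rab genes were called higher and 8 lower. Higher calls made up 50% of the Rab calls and 31.1% of all calls with that scaling, against 68.8% and 46.0% with quantiles. With the acinar marker mean as a covariate, limma called 0 Rab genes here, with 8 at an unadjusted p under 0.05, and 118 genes in all, against 3767 without it. Fitted differences moved either way in that fit, and none passed. Rab28 stood at 1.06, Rab18 at 0.94, Rab37 at 0.88 and Rab31 at -1.27, each larger in size than without the covariate (limma adjusted p 0.17 to 0.33). Rab3a stood at 0.22 and Rab1a at 0.15, each smaller (0.80 and 0.88). The fit with the covariate also called 0 Rab genes at P1 against E18.5 (222 of all genes) and 0 at P10 against P1 (46 of all genes), with 6 at an unadjusted p under 0.05 in each. In adults against P10 it kept 3 of the 4 Rab calls and called 1076 genes, against 1237 without it. That covariate separates P10 and adult samples from E18.5 and P1 samples without overlap. At P10 against P1 and in adults against E18.5, acinar content and age therefore cannot be told apart in this fit. The acinar means overlapped between E18.5 (5.01 to 6.46) and P1 (5.43 to 7.51), and between P10 (9.51 to 10.94) and adults (10.13 to 11.48).

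**Figure D3:**
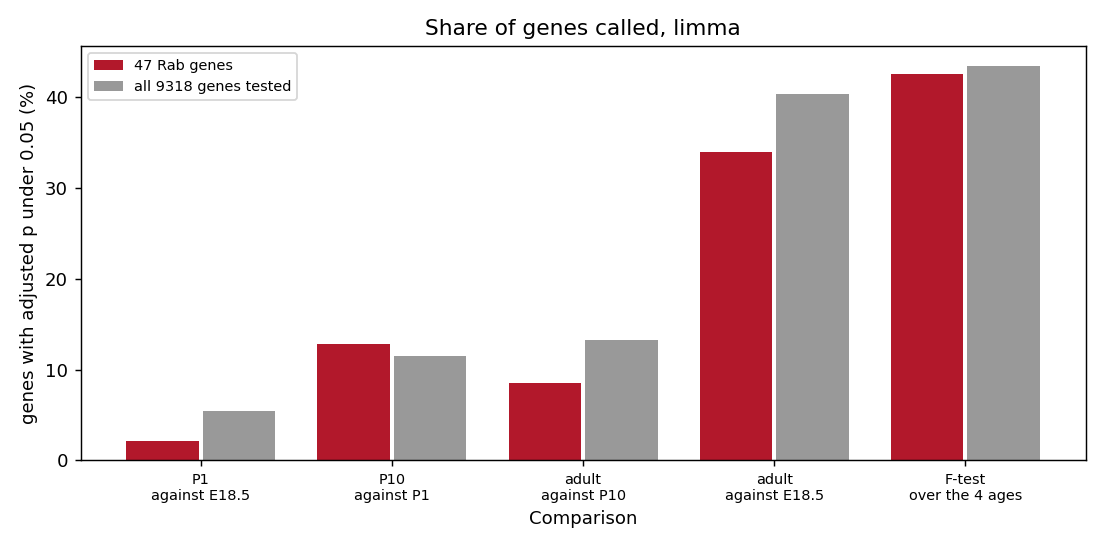
Percent of genes called at an adjusted p under 0.05 by limma (y axis) in each comparison (x axis), for the 47 Rab genes (red) and for all 9318 genes tested (grey). The red and grey bars lie at 34.0% and 40.4% in adults against E18.5 and at 42.6% and 43.5% in the F-test.

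**Figure D4:**
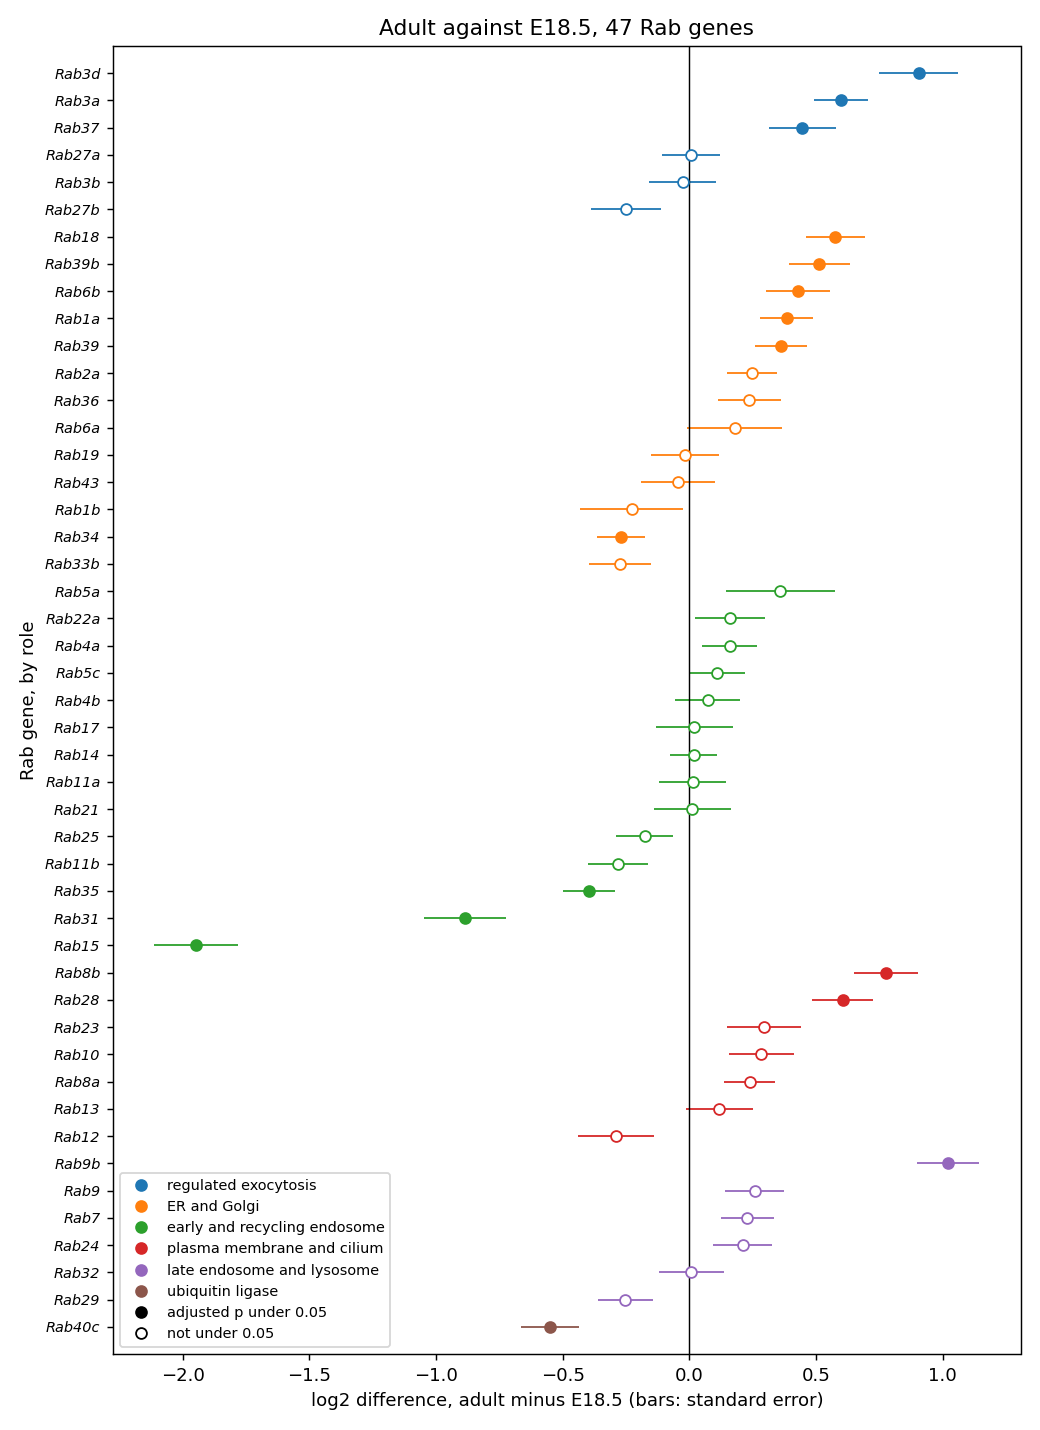
Log2 difference of adults minus E18.5 for each of the 47 Rab genes (x axis), with its standard error as a bar, genes by role on the y axis, and filled points where the limma adjusted p was under 0.05. Rab9b lies farthest to the right at 1.02 and Rab15 farthest to the left at -1.95.

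Among the 6 kept Rab genes of regulated exocytosis, 3 were higher in adults than at E18.5 (Rab3a, Rab3d and Rab37) and the other 3 passed no test in that comparison. Over all genes, 18.6% were called higher and 21.9% lower there. The median difference of the 6 was 0.23, beside -0.01 over all genes. Rab3a encodes the Rab3 protein of synaptic vesicles that also acts in insulin secretion. Its log2 levels were 9.22, 9.23, 8.98 and 9.05 at E18.5, 8.79, 8.92 and 9.02 at P1, 9.19 and 9.13 at P10 and 9.68, 9.62 and 9.85 in adults. The 3 adult samples lay above all 9 others. Rab3a was 1.47-fold higher in adults than at P10 (log2 difference 0.56 ± 0.13 (SE), limma adjusted p = 0.0091) and 1.52-fold higher than at E18.5 (log2 difference 0.60 ± 0.11 (SE), limma adjusted p = 0.00042). The difference from P10 missed the threshold without P10 replicate 2 (log2 difference 0.53, adjusted p = 0.087).

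Rab3d encodes a Rab3 protein known from secretory granules, above all from the zymogen granules of exocrine cells. Log2 levels of Rab3d were 9.72, 10.10, 9.92 and 9.92 at E18.5, 9.94, 10.18 and 9.84 at P1, 10.52 and 10.56 at P10 and 10.53, 10.67 and 11.25 in adults. All P10 and adult samples lay above all E18.5 and P1 samples, and adult replicate 3 was the highest of the 12. Adults were 1.87-fold higher than E18.5 (log2 difference 0.91 ± 0.16 (SE), limma adjusted p = 0.00036). At P10 against P1 the groups did not overlap and the test was not passed (log2 difference 0.55 ± 0.19 (SE), limma adjusted p = 0.072). The acinar markers split the 12 samples the same way. Their list means were 9.51 and above at P10 and in adults, and 7.51 and below at E18.5 and P1. Rab9b, Rab15, Rab18, Rab28 and Rab31 were among the other members with that split. The part of the acinar markers in the Rab3d result was not tested apart from the covariate fit. In that fit the Rab3d difference of adults from E18.5 was 1.20 with a limma adjusted p of 0.27. Rab27b, another Rab known from zymogen granules, was above background on 5 samples, none of them adult, with log2 levels of 5.11, 4.74, 4.87 and 4.87 at E18.5, 4.82, 4.94 and 4.66 at P1, 4.32 and 4.91 at P10 and 4.62, 4.57 and 4.75 in adults. Its samples overlapped at every step and it passed no test (F-test adjusted p = 0.32). The other Rab27b probes were above background on no sample and gave no check.

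Rab3b, a further Rab3 protein of neuroendocrine and epithelial secretory vesicles, was highest at P1 and P10. Its log2 levels were 5.19, 5.14, 5.24 and 5.41 at E18.5, 5.96, 5.73 and 5.75 at P1, 5.93 and 6.30 at P10 and 5.06, 5.50 and 5.10 in adults. All P1 and P10 samples lay above all E18.5 and adult samples, and E18.5 and adult samples overlapped. Rab3b was 1.48-fold higher at P1 than at E18.5 (log2 difference 0.57 ± 0.13 (SE), limma adjusted p = 0.024) and 1.86-fold lower in adults than at P10 (log2 difference -0.89 ± 0.16 (SE), limma adjusted p = 0.0019). Adults and E18.5 differed by -0.03 ± 0.13 (SE), and the test was not passed (adjusted p = 0.89). The fall in adults against P10 held without any one sample and under all 9 other settings, the acinar covariate among them (adjusted p = 0.0039). The rise at P1 missed the threshold without E18.5 replicate 2 or 3 or without any one P1 replicate, with adjusted p of 0.053 to 0.082, and with the acinar covariate (0.051).

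Rab27a encodes the Rab that binds granuphilin on insulin granules. Rab27a stood at 9.90, 10.04, 10.17 and 9.87 at E18.5, 10.17, 10.08 and 9.94 at P1, 9.99 and 10.31 at P10 and 10.02, 10.09 and 9.89 in adults. The ages overlapped in every comparison, with differences of 0.07 ± 0.12 at P1 against E18.5, 0.09 ± 0.14 at P10 against P1, -0.15 ± 0.14 in adults against P10 and 0.01 ± 0.12 in adults against E18.5 (SE). No test was passed, and the F-test gave an adjusted p of 0.71. Rab37, a Rab of secretory granules in mast cells and other secretory cells, stood at 5.32, 5.27, 5.58 and 5.46 at E18.5, 5.83, 5.73 and 5.97 at P1, 5.84 and 6.37 at P10 and 5.96, 5.89 and 5.72 in adults. Its 4 E18.5 samples were the lowest of the 12, and P10 replicate 2 was the highest. Rab37 was 1.36-fold higher in adults than at E18.5 (log2 difference 0.45 ± 0.13 (SE), limma adjusted p = 0.015), a call that was lost without adult replicate 1 (adjusted p = 0.055) and with median scaling (0.067).

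**Figure D5:**
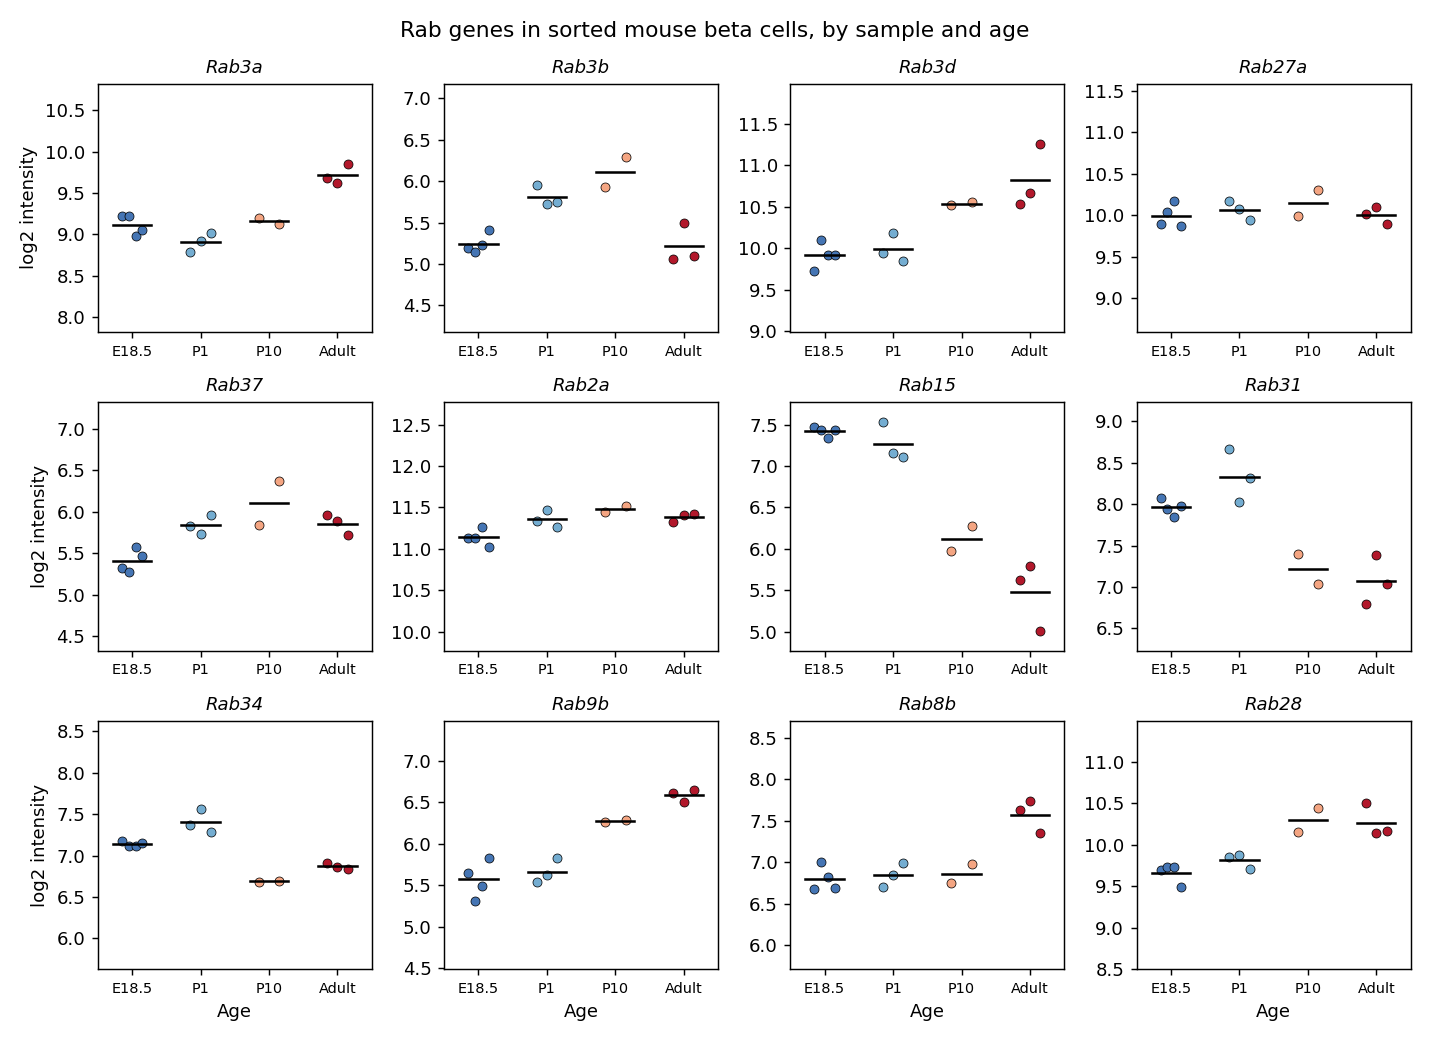
Log2 intensity (y axis) of 12 Rab genes in each sample by age (x axis), with 1 point per sample and a line at the mean of the age. Each panel spans 3 log2 units around its gene's range, so slopes but not heights compare between panels. Rab3a is at 9.62 to 9.85 in adults and at most 9.23 earlier, Rab3b is highest at P1 and P10, and Rab15 lies at 5.01 to 5.80 in adults against 7.34 to 7.48 at E18.5.

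Of the 13 kept members that act between endoplasmic reticulum and Golgi or at the Golgi, 5 were higher and 1 lower in adults than at E18.5, where 18.6% of all genes were higher and 21.9% lower. The median difference of the 13 was 0.24. Rab18, a Rab of the endoplasmic reticulum and lipid droplets, had log2 levels of 6.59, 6.94, 7.05 and 6.90 at E18.5, 6.85, 6.98 and 6.96 at P1, 7.40 and 7.50 at P10 and 7.58, 7.39 and 7.37 in adults. Its 5 P10 and adult samples lay above the other 7. Rab18 was 1.43-fold higher at P10 than at P1 (log2 difference 0.52 ± 0.14 (SE), limma adjusted p = 0.025) and 1.49-fold higher in adults than at E18.5 (log2 difference 0.58 ± 0.12 (SE), limma adjusted p = 0.0012), while adults and P10 differed by 0.00 ± 0.14. The step at P10 lost its call without P1 replicate 1 or 2 or without either P10 replicate, with adjusted p of 0.054 to 0.17. A second Rab18 probe was above background on no sample and gave no check.

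Rab34 encodes a Golgi-associated Rab with roles in lysosome positioning and in building primary cilia. Rab34 stood at 7.17, 7.11, 7.12 and 7.16 at E18.5, 7.37, 7.57 and 7.29 at P1, 6.68 and 6.69 at P10 and 6.91, 6.87 and 6.84 in adults. P1 samples were the highest and P10 samples the lowest, and no neighbouring ages overlapped. Rab34 was 1.65-fold lower at P10 than at P1 (log2 difference -0.72 ± 0.11 (SE), limma adjusted p = 0.00097), a call that held without any one sample, and its other 2 probes gave -0.58 and -0.49. Rab34 was also 1.21-fold lower in adults than at E18.5 (log2 difference -0.27 ± 0.09 (SE), limma adjusted p = 0.033), where the other 2 probes gave -0.09 and -0.07. That call was lost without any one E18.5 replicate or without adult replicate 2 or 3, with adjusted p of 0.053 to 0.084, and under 5 of 9 other settings.

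Rab39b, a Rab of Golgi and autophagy whose human counterpart is linked to X-linked intellectual disability, averaged 5.66 ± 0.12 in adults and 5.15 ± 0.21 at E18.5 (SD, n = 3 adult and 4 E18.5 samples, as for the means below) and was 1.43-fold higher in adults (log2 difference 0.51 ± 0.12 (SE), limma adjusted p = 0.0036). Its paralogue Rab39 averaged 5.48 ± 0.04 in adults and 5.12 ± 0.05 at E18.5 and was 1.28-fold higher (log2 difference 0.36 ± 0.10 (SE), limma adjusted p = 0.012). Rab1a, which acts in transport from endoplasmic reticulum to Golgi, averaged 8.99 ± 0.12 in adults and 8.61 ± 0.10 at E18.5 and was 1.30-fold higher (log2 difference 0.38 ± 0.11 (SE), limma adjusted p = 0.010). In these 3 genes no adult sample overlapped an E18.5 sample. With median scaling, Rab1a (adjusted p = 0.16) and Rab39 (0.057) lost their calls in this comparison, and with the acinar covariate Rab39 stood at -0.022 with an adjusted p of 0.99. Rab6b, a Golgi Rab found mainly in neurons, was above background in no E18.5 sample and in 2 of 3 adult samples. Its measured means were 5.00 in adults and 4.57 at E18.5 (limma adjusted p = 0.015). Without adult replicate 1 that call was lost (adjusted p = 0.073). With E18.5 set to the lowest signal above background, adults were 1.11-fold higher. This value is not a lower bound, since the adult mean includes replicate 3, which was at 4.77 and not above background.

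Rab2a, which acts early in the secretory pathway and in the making of dense-core vesicles in the worm Caenorhabditis elegans, had log2 levels of 11.13, 11.13, 11.27 and 11.03 at E18.5, 11.33, 11.47 and 11.26 at P1, 11.45 and 11.51 at P10 and 11.33, 11.41 and 11.42 in adults. Its 3 adult samples lay above its 4 E18.5 samples. The difference in adults against E18.5 did not pass (log2 difference 0.25 ± 0.10 (SE), limma adjusted p = 0.056). The other 6 members of this group, Rab1b, Rab6a, Rab19, Rab33b, Rab36 and Rab43, were called in no comparison and differed by -0.27 to 0.24 in adults against E18.5. With median scaling, Rab33b was called lower in adults against E18.5 (log2 difference -0.43, limma adjusted p = 0.021). Probes disagreed for Rab6a, where the brightest gave 0.18 in adults against E18.5 and the others 0.55 and 0.43, and for Rab1b, where the brightest gave -0.23 and the others 0.14 and 0.20.

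Of the 14 kept members of early and recycling endosomes, 3 were lower in adults than at E18.5, Rab15, Rab31 and Rab35, and the other 11 were not called. That share lies close to the 21.9% of all genes called lower, and the median over the 14 was 0.01. Rab15 encodes an endosomal Rab described mainly in neurons, where it acts on early and recycling endosomes. Its log2 levels were 7.48, 7.44, 7.34 and 7.43 at E18.5, 7.53, 7.16 and 7.11 at P1, 5.97 and 6.27 at P10 and 5.62, 5.80 and 5.01 in adults. All 5 P10 and adult samples lay below all 7 earlier ones, and the adult samples lay below the P10 samples. Rab15 was 2.21-fold lower at P10 than at P1 (log2 difference -1.14 ± 0.20 (SE), limma adjusted p = 0.0019) and 3.85-fold lower in adults than at E18.5 (log2 difference -1.95 ± 0.17 (SE), limma adjusted p = 5.6e-07), the smallest F-test p of the family (adjusted p = 1.5e-06). Both calls held without any one sample. The further difference of adults from P10 (log2 difference -0.65 ± 0.20 (SE), limma adjusted p = 0.043) was lost in 7 of 12 fits that left out 1 sample, those without E18.5 replicate 2, 3 or 4, P1 replicate 2, either P10 replicate or adult replicate 3 (adjusted p 0.054 to 0.30), and under 5 of 9 other settings. With the acinar covariate the adult to E18.5 difference was -1.68 with an adjusted p of 0.13.

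Rab31, also known as Rab22b, acts in transport between trans-Golgi and endosomes. Log2 levels of Rab31 were 8.08, 7.95, 7.85 and 7.97 at E18.5, 8.66, 8.02 and 8.31 at P1, 7.40 and 7.03 at P10 and 6.80, 7.39 and 7.04 in adults. P10 and adult samples lay below all earlier ones and overlapped with each other, and P1 replicate 1 was the highest of the 12. Rab31 was 2.17-fold lower at P10 than at P1 (log2 difference -1.12 ± 0.19 (SE), limma adjusted p = 0.0020) and 1.85-fold lower in adults than at E18.5 (log2 difference -0.89 ± 0.16 (SE), limma adjusted p = 0.00057). Neither call was lost when any one sample was left out. With the acinar covariate the F-test was still passed (adjusted p = 0.040), but both pairwise calls were lost. In that fit limma gave -1.40 at P10 against P1 (adjusted p = 0.16) and -1.27 in adults against E18.5 (adjusted p = 0.25). Rab35, a Rab of recycling from endosomes to the plasma membrane, averaged 7.67 ± 0.11 in adults and 8.07 ± 0.11 at E18.5 (SD, n = 3 and 4) and was 1.31-fold lower (log2 difference -0.40 ± 0.10 (SE), limma adjusted p = 0.0069). No adult sample overlapped an E18.5 sample.

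The best known endosomal members did not move past the threshold in any pairwise comparison with quantile normalization. Rab5a and Rab5c, of early endosomes, differed by 0.36 ± 0.21 and 0.11 ± 0.11 in adults against E18.5 (SE). Rab4a and Rab4b, of fast recycling, differed by 0.16 and 0.07, and the recycling Rabs Rab11a, Rab11b and Rab25 by 0.01, -0.28 and -0.18. With median scaling, Rab11b (log2 difference -0.39, limma adjusted p = 0.011) and Rab25 (-0.33, 0.028) were called lower in adults against E18.5. Rab11b changed by the F-test over the 4 ages (adjusted p = 0.019), which was lost without P1 replicate 1 and without adult replicate 2 or 3 (0.057 to 0.058). Its mean was highest at P1 (10.80 ± 0.08) and lowest in adults (10.26 ± 0.10). Rab14, Rab17, Rab21 and Rab22a differed by 0.01 to 0.16.

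In the group of 7 that serves transport to the plasma membrane and the cilium, 2 were higher in adults than at E18.5, Rab8b and Rab28, where 18.6% of all genes were higher, and the median difference was 0.28. Rab8b, a paralogue of Rab8a in exocytic traffic to the cell surface, had log2 levels of 6.68, 7.00, 6.82 and 6.69 at E18.5, 6.70, 6.85 and 6.99 at P1, 6.75 and 6.97 at P10 and 7.63, 7.73 and 7.35 in adults. The 3 adult samples lay above all others, and the 9 earlier samples of the 3 younger ages overlapped. Rab8b was 1.64-fold higher in adults than at P10 (log2 difference 0.71 ± 0.15 (SE), limma adjusted p = 0.0059) and 1.71-fold higher than at E18.5 (log2 difference 0.78 ± 0.13 (SE), limma adjusted p = 0.00021), where its second probe gave 0.57. Without P10 replicate 1 the call against P10 was lost (log2 difference 0.60, adjusted p = 0.083). Rab8a changed by the F-test (adjusted p = 0.027) and averaged 9.59 ± 0.07 in adults and 9.35 ± 0.07 at E18.5. That difference of 0.24 did not pass (limma adjusted p = 0.079), and a second Rab8a probe gave 0.46. The F-test of Rab8a was lost without P1 replicate 1 or 3 or without adult replicate 2 or 3 (0.061 to 0.084).

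Rab28, a Rab of cilia and photoreceptor outer segments, had log2 levels of 9.69, 9.73, 9.73 and 9.49 at E18.5, 9.86, 9.87 and 9.71 at P1, 10.16 and 10.45 at P10 and 10.50, 10.14 and 10.16 in adults. All 5 P10 and adult samples lay above the other 7. Rab28 was 1.41-fold higher at P10 than at P1 (log2 difference 0.49 ± 0.14 (SE), limma adjusted p = 0.039) and 1.52-fold higher in adults than at E18.5 (log2 difference 0.61 ± 0.12 (SE), limma adjusted p = 0.0010), where its second probe gave 0.68. At P10 against P1 the second probe gave 0.31. In adults against P10 it gave 0.27, where the brightest gave -0.04. The step at P10 lost its call without E18.5 replicate 3, any one P1 replicate or either P10 replicate, with adjusted p of 0.052 to 0.32. Rab12 changed by the F-test (adjusted p = 0.021) and was above background on 8 samples, none of them adult. Its measured means were 5.44 at P1 and 4.81 in adults, and the F-test was lost without P1 replicate 1 or 2 or adult replicate 2 (0.056 to 0.073). Rab10, Rab13 and Rab23 were not called and differed by 0.12 to 0.29 in adults against E18.5.

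Among the 6 kept members of late endosomes, lysosomes and autophagy, Rab9b was called higher in adults than at E18.5, where 18.6% of all genes were higher, and the median difference was 0.22. Rab9b is the paralogue of Rab9, which returns receptors from late endosomes to the trans-Golgi. Its log2 levels were 5.64, 5.31, 5.49 and 5.83 at E18.5, 5.54, 5.62 and 5.83 at P1, 6.27 and 6.29 at P10 and 6.61, 6.51 and 6.65 in adults. Adult samples were the highest, P10 samples came next, and the 7 E18.5 and P1 samples overlapped at 5.83 and below. Rab9b was 1.53-fold higher at P10 than at P1 (log2 difference 0.62 ± 0.15 (SE), limma adjusted p = 0.013) and 2.03-fold higher in adults than at E18.5 (log2 difference 1.02 ± 0.12 (SE), limma adjusted p = 1.4e-05). The call at P10 was lost without either P10 replicate (0.089 to 0.093). With the acinar covariate both calls were lost. In that fit limma gave 0.52 at P10 against P1 (adjusted p = 0.59) and 0.89 in adults against E18.5 (adjusted p = 0.31). Rab9 itself averaged 6.90 ± 0.15 in adults and 6.64 ± 0.17 at E18.5 and passed the F-test narrowly (adjusted p = 0.049), a call lost in 10 of the 12 fits that left out 1 sample, all but those without E18.5 replicate 1 and without adult replicate 2 (0.051 to 0.13).

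Rab7, the central Rab of late endosomes, averaged 9.66 ± 0.15 in adults and 9.43 ± 0.06 at E18.5, and the difference did not pass (log2 difference 0.23 ± 0.11 (SE), limma adjusted p = 0.099). Its adult and E18.5 samples did not overlap, and the other 2 probes gave 0.26 and 0.43. Rab29 was above background on 4 samples, none of them adult. Rab24, Rab29 and Rab32 were not called, with differences of 0.21, -0.25 and 0.01. Rab40c, which has a SOCS box and serves as the substrate subunit of a ubiquitin ligase, was 1.46-fold lower in adults than at E18.5 (log2 difference -0.55 ± 0.11 (SE), limma adjusted p = 0.0016). Its means were 7.93 ± 0.02 in adults and 8.48 ± 0.13 at E18.5, and no adult sample overlapped an E18.5 sample.

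The regulators and effectors of Rab proteins were followed in adults against E18.5 as 4 lists of genes. Of 25 kept effectors, 8 were higher and 3 lower in adults, with a median difference of 0.21. Of 23 kept GTPase activators, 5 were higher and 2 lower, and of 20 kept exchange factors 3 were higher and 1 lower, with medians of 0.08 and 0.10. Of 6 kept chaperones and prenylation genes, 2 were higher, with a median of 0.11. Over all genes, 18.6% were called higher and 21.9% lower in this comparison, and 46.0% of all calls were higher with quantile normalization and 31.1% with median scaling.

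The rule for naming members did not cover these lists, so the genes named from them here and below are examples. Their calls were not followed under the other settings, the acinar covariate or with samples left out. Around Rab3, the exchange factor Madd and the GTPase activator subunit Rab3gap1 were both higher in adults. Madd had log2 levels of 5.33, 5.63, 5.50 and 5.58 at E18.5, 5.88, 5.93 and 5.70 at P1, 5.88 and 5.76 at P10 and 6.14, 6.02 and 6.32 in adults. Its 3 adult samples were the highest of the 12 and its 4 E18.5 samples the lowest. Madd was 1.57-fold higher in adults than at E18.5 (log2 difference 0.65 ± 0.11 (SE), limma adjusted p = 0.00035). Rab3gap1, whose complex also serves Rab18 as an exchange factor, had log2 levels of 9.17, 9.00, 8.89 and 9.04 at E18.5, 9.23, 8.95 and 9.04 at P1, 9.34 and 9.55 at P10 and 9.91, 9.73 and 9.77 in adults. Adult samples were the highest and P10 samples came next. Rab3gap1 was 1.71-fold higher in adults than at E18.5 (log2 difference 0.78 ± 0.11 (SE), limma adjusted p = 6.1e-05).

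Sytl4, which encodes granuphilin, the Rab27a effector that docks insulin granules, had log2 levels of 11.33, 11.36, 11.41 and 11.25 at E18.5, 10.83, 10.96 and 10.73 at P1, 10.82 and 10.51 at P10 and 10.57, 10.37 and 10.17 in adults. All 4 E18.5 samples lay above the other 8. Sytl4 was 1.41-fold lower at P1 than at E18.5 (log2 difference -0.50 ± 0.12 (SE), limma adjusted p = 0.026) and 1.96-fold lower in adults than at E18.5 (log2 difference -0.97 ± 0.12 (SE), limma adjusted p = 1.6e-05). The level of Rab27a itself overlapped between these ages, as given above. Sytl1, another synaptotagmin-like Rab27 effector, was 1.87-fold higher in adults than at E18.5 (log2 difference 0.90 ± 0.14 (SE), limma adjusted p = 0.00016). Rab11fip5, an effector of Rab11, was 1.93-fold higher (log2 difference 0.95 ± 0.13 (SE), limma adjusted p = 5.9e-05), and Ocrl, an inositol phosphatase that binds several Rabs, was 2.15-fold lower (log2 difference -1.10 ± 0.14 (SE), limma adjusted p = 2.3e-05). In the chaperone list, Rabac1, a membrane protein that binds prenylated Rabs, was 1.50-fold higher in adults (log2 difference 0.58 ± 0.12 (SE), limma adjusted p = 0.0012).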

How the data were processed

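RNA of 12 samples was measured on Illumina MouseRef-8 bead arrays. For each sample the authors deposited the intensity of 25697 probes on a linear scale. How these were scanned, scaled or background-corrected is not given in the sources used here. A second table was left out, since the names of its 24 columns belong to no sample. Sample groups came from the labels. Everything after the intensities was computed here. Background was modelled per array with normexp (offset 16), then arrays were quantile-normalized and logged to base 2. A probe was above background where it exceeded a limit at p of 0.01 derived from the array's modal signal and the spread on its lower side; limits lay between 40.3 and 47.2, and 42.0% to 47.3% of probes exceeded them. Probes above background on at least 2 samples were kept (13391), with the brightest probe per gene (9318 genes). The platform table gave 23978 probes 1 symbol and none several, and 1719 are unnamed here. Levels of different probes are not comparable.

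Ages were compared with limma 3.58.1 in R 4.3.3 (lmFit, contrasts.fit and eBayes on all 12 samples, age as a factor, two-sided, Benjamini-Hochberg over all 9318 genes, threshold 0.05), which was tested on simulated data. Differences are the later minus the earlier age on the log2 scale. The members, role groups and lists of markers and regulators were chosen with earlier results of these data known. Values in every sample are given for members called in a comparison (the 8 largest differences where there were more), those with the 8 smallest F-test p, the granule exocytosis members and Rab2a; others are given by mean, range or count. Alternatives were no background correction, median scaling, no filter, the mean of probes, trend and robust eBayes, array weights, a replicate block, the mean of the acinar markers as a covariate, fits on the compared ages alone, and leaving out each sample. Promoter windows are those of RefSeq on GRCm38.p6, and figures used matplotlib 3.10.9 under Python 3.11.15. No pair of samples shared identical values at more than 0.950% of probes, so all 12 counted as separate. Precision is limited by how few arrays there are.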

Additional observations from a re-analysis of the deposited data

Results flagged for a closer look

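In 3 of the 47 Rab genes, 1 of the 4 E18.5 samples stood apart from the others of its age, with a gap to the nearest sample that made up more of the age's whole range than Dixon's critical value for 4 samples. All 3 were E18.5 replicate 1. Rab6a was at 6.24 there and at 7.10 in the nearest E18.5 sample, a gap of 0.900 of the range. Rab11a, a Rab of recycling endosomes, was at 6.06, with the nearest sample at 6.27 and a gap of 0.916 of the range. Rab43, a Golgi Rab, was at 5.45, with the nearest sample at 5.09 and a gap of 0.866 of the range. Chance alone gives such a gap in about 1 in 20 groups. None of the 3 genes was called in any comparison.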

How the results depend on the processing

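Of 403 values of the 47 calls of single Rab genes under the 9 other settings, 342 kept direction and call, 60 lost the call and 1 reversed, Rab39 in adults against E18.5 at -0.022 with the acinar covariate. Of 564 values with 1 sample left out, 505 kept the call, 59 lost it and 0 reversed. With the acinar covariate, 5 Rab genes were called by the F-test (1252 genes in all), 0 at P1 against E18.5 (6 at an unadjusted p under 0.05 by limma; 222 in all), 0 at P10 against P1 (6 unadjusted; 46 in all) and 0 in adults against E18.5 (8 unadjusted; 118 in all). Adults against P10 kept 3 calls there, Rab3a, Rab3b and Rab8b (1076 in all, against 1237 without the covariate). The 5 of the F-test were Rab3a, Rab3b, Rab8b, Rab12 and Rab31. Array weights gave 2 Rab genes and 986 genes at P1 against E18.5. Same-numbered samples of different ages deviated together with r of -0.07 to 0.28, over 0.1 in 5 of 15 pairs. Differently numbered samples were not examined in this way, so whether the numbers pair the samples was not settled. With the replicate block, the Rab counts were 19 by the F-test (3946 in all), 1 at P1 against E18.5 (215), 5 at P10 against P1 (1114), 3 in adults against P10 (1117) and 16 in adults against E18.5 (3655). With median scaling, 31.1% of the calls in adults against E18.5 were higher, 29.9% at P1 against E18.5 and 31.5% in adults against P10, where quantile normalization gave 46.0%, 47.4% and 45.3%.

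With 1 sample left out, Rab counts ranged over 15 to 22 for the F-test, 0 to 2 at P1 against E18.5, 3 to 7 at P10 against P1, 2 to 5 in adults against P10 and 15 to 17 in adults against E18.5. The count at P1 against E18.5 was 0 without E18.5 replicate 2 or 3 or P1 replicate 1 or 2 (3 to 6 at an unadjusted p under 0.05 by limma). Without P10 replicate 1 or 2 it was 2, while P10 against P1 had 3 and adults against P10 had 2. Over all genes the ranges were 3498 to 3997 for the F-test, 114 to 592 at P1 against E18.5, 388 to 1180 at P10 against P1, 510 to 1294 in adults against P10 and 3135 to 3725 in adults against E18.5. Only 2 samples stand for P10, and signal near background limits Rab6b, Rab12, Rab13, Rab17, Rab27b, Rab29 and Rab32. Rab39, Rab39b and Rab3b were above background on all 12 samples but not far above it in their dimmer ages. Rab39 and Rab39b averaged 5.12 and 5.15 at E18.5, where the lowest signal above background averaged 4.84. Rab3b averaged 5.22 in adults, where that signal averaged 4.93. Why values differ between settings was not tested.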

Other observations

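Of the 47 Rab genes, 3 lie on the X chromosome in the RefSeq table, Rab9, Rab9b and Rab39b. Of these, 2 were called higher in adults than at E18.5 (Rab9b and Rab39b), and on the other chromosomes 9 of 44 Rab genes were higher and 5 lower. Among all kept genes, 26.7% of the 303 on the X chromosome were called higher and 13.9% lower in adults, against 18.3% higher and 22.1% lower of the 9010 on other chromosomes. The median log2 difference was 0.10 on the X chromosome and -0.01 elsewhere. The sex of the animals is not given in the labels used here, and its part in these values was not tested.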
